A study of Mus musculus with 15 samples.

Results

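The comparison set blood from mice given αCTLA-4 and a late neck dissection (ND) against blood from untreated mice. Its samples were those labelled CTLA4 with surgery Late and those labelled Untreated with surgery None, 5 of each, or 10 of the 15 samples of the series. Every gene of their count tables entered, 55416 identifiers in all, of which 13547 passed a filter on low counts and were tested.

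All mice were wild-type C57BL/6. The labels of all of them, untreated mice included, give a graft of 4MOSC1 cells, a mouse oral squamous carcinoma line, in the tongue and 10 days of tumor growth, and the study's methods give female animals aged 4 to 6 weeks at implantation. The late ND mice had received 2 doses of αCTLA-4 antibody (clone 9H10). Neck dissection removes the cervical lymph nodes that drain the tumor. The study's legend and its text differ on whether blood was drawn before or after the late operation, so "late ND" names the group here and not a state known to hold at sampling. No mice labelled with αCTLA-4 and no operation, or with an operation alone, are in the series. If the late operation came before sampling, drug and surgery therefore cannot be told apart. Each library came from the cheek blood of 1 mouse.

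Gene counts numbered 7849602, 13091779, 13924361, 10929570 and 9320983 in late ND mice 1 to 5 and 5862888, 10796099, 6266684, 6810637 and 6248017 in untreated mice 1 to 5. Levels of single genes are given below in CPM, counts relative to a library size that is set by trimmed means. On this scale the blood label was met by the leukocyte antigen Ptprc at 1086 CPM, the neutrophil alarmin S100a8 at 2528, the T cell chain Cd3e at 39.6, the B cell chain Cd79a at 191, the platelet chemokine Pf4 at 616 and the globin Hbb-bs at 463985, each the mean of 5 untreated mice. None of these markers passed the adjusted threshold between the groups in edgeR's test.

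Whole blood RNA mixes transcripts of white cells, platelets and red cells. Mature red cells lack a nucleus, and most of their RNA is held by reticulocytes, young cells just released from marrow or spleen that clear their organelles and RNA within days. Classical monocytes, which carry the chemokine receptor Ccr2, leave the marrow in inflammation and can become macrophages or dendritic cells in tissue.

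Genes of young red cells were lower in late ND blood than in untreated blood, most of those named below by 1 to 3 log2 units, and genes of classical monocytes and of some dendritic cells were higher. Over 7 lists of red cell genes, 31 of 77 tested members fell and 0 rose in edgeR's test (45 lower and 1 higher at an unadjusted p under 0.05, 43 lower and 0 higher with DESeq2). Over the lists of neutrophil, monocyte, dendritic, basophil and eosinophil genes, 10 of 90 rose and 1 fell. At an unadjusted p under 0.05, 19 of these were higher and 4 lower, and with DESeq2 12 and 2. Over all genes tested edgeR called 0.989% higher and 2.01% lower, the shares to set beside each list count here and below. A smaller fall, below 1 log2 unit, was shared by 4 of 21 T cell genes. The T cell list's median was -0.44 against 0.002 over all genes, and 0.47 against 0.908 with library totals. It was -0.59 against -0.02 with the hemoglobin share as a term. In blood, fewer cells of a type and less RNA in each of them cannot be told apart.

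Across all 13547 genes, 134 were higher (0.989%) and 272 lower (2.01%) in late ND mice by the quasi-likelihood test of edgeR (n = 5 per group, threshold 0.05 after Benjamini-Hochberg adjustment), and 1177 and 1122 had an unadjusted p under 0.05. Libraries of the groups did not overlap for 340 higher genes (2.51%) and 381 lower genes (2.81%). Of the 134 higher genes, 127 encode proteins, and the median log2 fold change was 0.84 with a maximum of 2.46. The 272 lower genes had a median of -1.41. Median GC content was 53.0% in exons of the higher genes and 48.4% in those of the lower genes, against 49.1% over all genes tested.

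The counts moved with almost every library left out. Without late ND mouse 1, 2, 3, 4 or 5, 0, 1, 9, 0 and 0 genes were higher and 0 lower each time, and without untreated mouse 1, 2, 3, 4 or 5, 47, 66, 0, 79 and 184 were higher and 110, 272, 0, 120 and 409 lower (edgeR). Higher genes then numbered 769 to 1369, and lower genes 970 to 1274, at an unadjusted p under 0.05. All of the 134 and 272 genes that could be tested kept their direction in each omission, and this holds for every gene called below. They were called in these same libraries, most of which each omission reuses, so kept signs give no independent support. By the Wald test of DESeq2, 272 genes were higher and 538 lower, among them 130 of the 134 and 272 of the 272.

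The split between higher and lower genes moved with the setting. With library totals in place of trimmed-mean scaling, 7463 genes were higher and 90 lower, because the all-gene median of the log2 fold change moved from 0.002 to 0.908. The share of higher genes among those called was 33.0% as first reported, 45.5% with the 18S class of the library as a term (167 higher, 200 lower), 19.5% without untreated mouse 2, 98.8% with library totals and 100.0% without late ND mouse 2 or 3, where 1 and 9 genes were called. With the hemoglobin share of each library as a term, edgeR called 0 genes in either direction (417 higher and 292 lower at an unadjusted p under 0.05), while 134 of 134 higher and 247 of 272 lower genes kept their direction. That share did not overlap between the groups, so its part and that of the group cannot be told apart. With this term the medians of 9 lists changed sign, from -2.40 to 0.07 for hemoglobin, 0.08 to -0.11 for iron, -0.18 to 0.10 for cytotoxic lymphocyte and -0.09 to 0.06 for nonclassical monocyte genes. The others went from -0.23 to 0.10 for interferon gamma-inducible, -0.03 to 0.05 for MHC class I, 0.04 to -0.37 for skeletal muscle, 0.34 to -0.20 for S100 and stefin genes and -0.08 to 0.40 for type I interferon-stimulated genes.

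**Figure D1:**
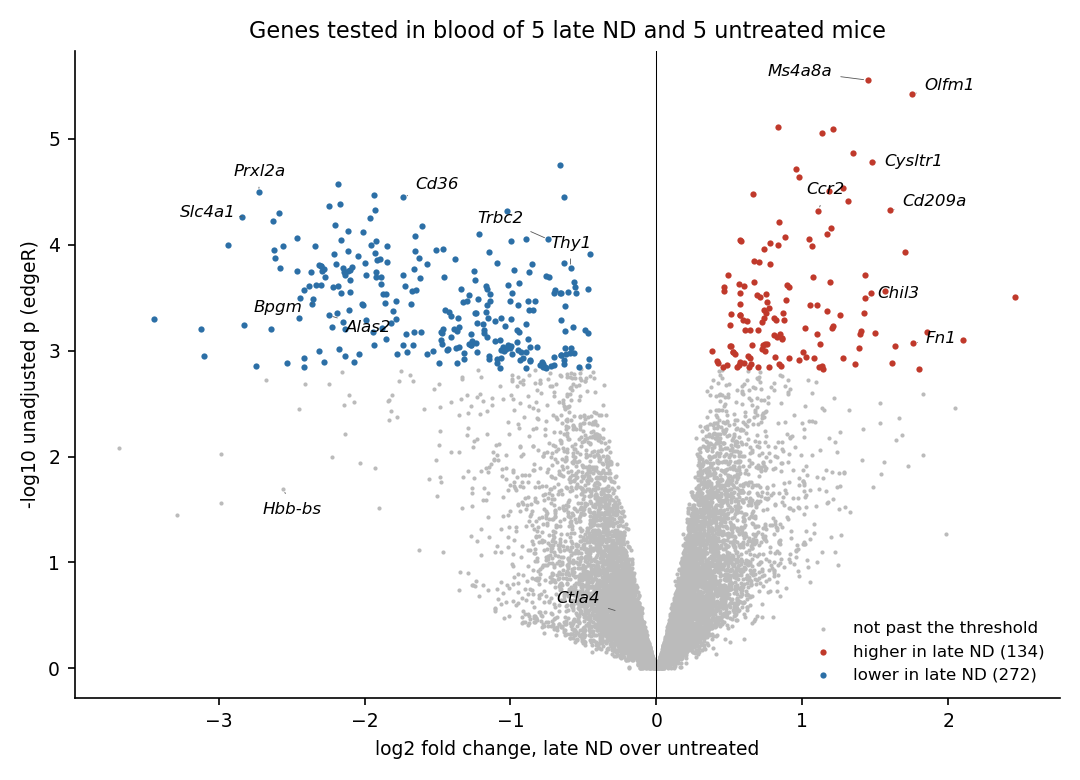
Each point is 1 of 13547 genes, with the log2 fold change of late ND over untreated blood on the x axis and -log10 of the unadjusted edgeR p on the y axis. Red points (134) are higher and blue points (272) lower at an adjusted p under 0.05, and the lower genes reach larger fold changes than the higher ones.

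Hemoglobin genes took 29.0%, 17.5%, 19.2%, 29.3% and 14.9% of gene counts in late ND mice 1 to 5 and 60.0%, 31.6%, 61.7%, 46.7% and 41.9% in untreated mice 1 to 5. Every late ND mouse lay below every untreated mouse, and untreated 2 was nearest to the late ND mice. The means were 22.0% ± 6.73 (SD, n = 5) and 48.4% ± 12.7 (SD, n = 5), a difference of -26.4 points (p = 0.00794 by a two-sided exact permutation test, the smallest that 5 against 5 allow, 0.0159 when adjusted over 6 library measures). Alignments to several places, where any sequence with copies elsewhere falls, made up 52.6% ± 5.34 (SD, n = 5) of genes plus counters in late ND mice and 68.7% ± 3.90 (SD, n = 5) in untreated mice (p = 0.00794 by an exact permutation test, 0.0159 when adjusted). Untreated 2 had 65.5% with the 18S gene at 0.08% of gene counts, and late 5 had 44.1% with that gene at 2.60%. The part of hemoglobin sequence in these alignments was not tested. Of uniquely aligned pairs, 44.1% ± 0.591 (SD, n = 5) were counted for a single gene in late ND mice and 46.1% ± 0.511 (SD, n = 5) in untreated mice, again with no overlap (p = 0.00794 by an exact permutation test, 0.0159 when adjusted). Ambiguous pairs are among those not counted. The part of this measure in single genes was not tested. A gene count of at least 1 was found for a mean of 22189 genes in late ND mice and 19020 in untreated mice (p = 0.0159 by an exact permutation test, 0.0238 when adjusted). Depth differed too, with a median of 10929570 gene counts in late ND mice and 6266684 in untreated mice (p = 0.0317 by an exact permutation test of the means, 0.0381 when adjusted), and its part in the number of genes found was not tested.

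The 18S ribosomal RNA gene Rn18s-rs5 read 13402, 313, 521, 23673 and 25967 CPM of all gene counts in late ND mice 1 to 5 and 105889, 766, 50301, 36565 and 46351 in untreated mice 1 to 5. Libraries late 2, late 3 and untreated 2 were thus poor in 18S sequence, and in the 18S-rich libraries every late ND value lay below every untreated value. As a share the gene took 1.28% ± 1.22 (SD, n = 5) and 4.80% ± 3.78 (SD, n = 5) of gene counts (p = 0.0556 by an exact permutation test, 0.0556 when adjusted). Among the 18S-rich libraries, 3 late ND and 4 untreated, the hemoglobin share was 24.4% against 52.6% (p = 0.0286 by an exact permutation test, the smallest possible, 0.0343 when adjusted). In the same 7 libraries edgeR called 0 genes (955 higher and 961 lower at an unadjusted p under 0.05), and 132 of 132 higher and 270 of 270 lower genes that could be tested kept their direction. These 7 libraries were among those in which the genes were called, so the kept signs give no independent support. The 18S-poor libraries hold only 1 untreated mouse, so no comparison was made among them.

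**Figure D2:**
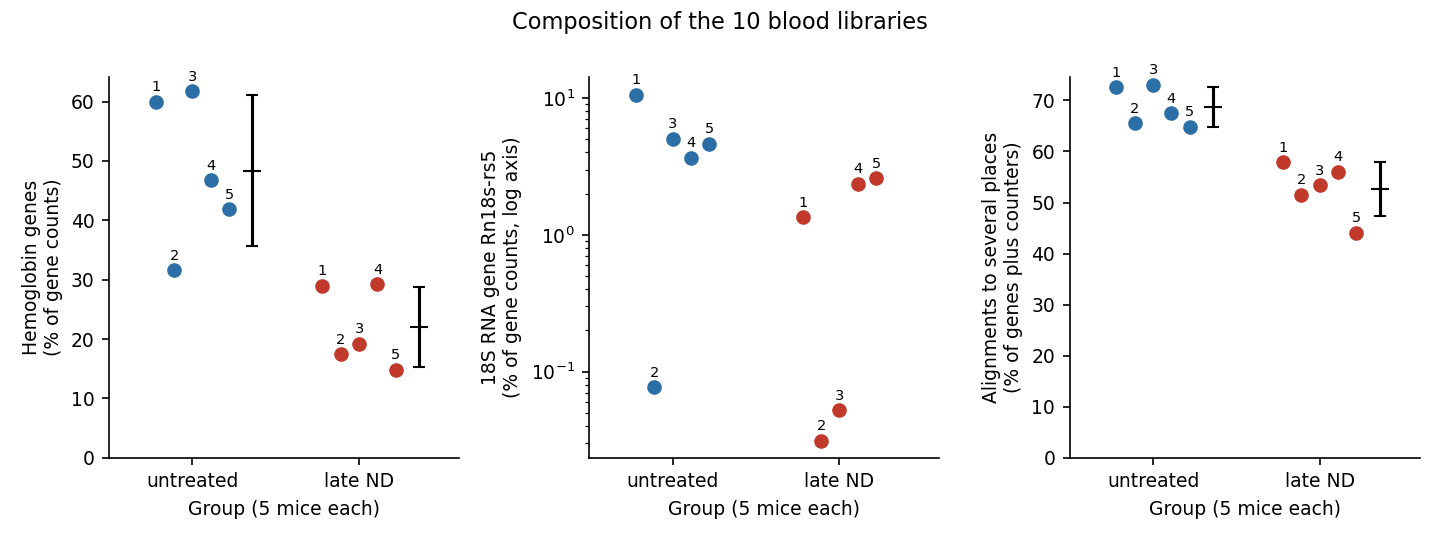
Points are the 10 libraries, labelled with the mouse number, and bars give the mean and SD of 5. The labels do not say what equal numbers share. Hemoglobin genes took at most 29.3% of gene counts in late ND mice and at least 31.6% in untreated mice, the 18S gene was low in 3 libraries, and alignments to several places were fewer in every late ND library.

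Genes of the red cell membrane and its skeleton had a median log2 fold change of -2.29 over 17 tested members against 0.002 over all genes, and 11 of the 17 fell. That median was -1.15 with library totals and -0.41 with the hemoglobin share as a term. Slc4a1 (ENSMUSG00000006574.16, chr11:102239650-102257029 of GRCm39) encodes the anion exchanger that anchors the skeleton to the membrane. It read 47.4, 37.3, 27.5, 59.2 and 31.8 CPM in late ND mice 1 to 5 and 579, 98.1, 308, 381 and 91.5 CPM in untreated mice 1 to 5. Untreated 2 and 5 were the lowest of their group and still above all late ND mice. The means were 40.6 ± 12.8 CPM (SD, n = 5) in late ND mice and 292 ± 205 CPM (SD, n = 5) in untreated mice, a log2 fold change of -2.84 (standard error 0.48, edgeR adjusted p = 0.0242).

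Epb41, a protein of the skeleton, had 451 ± 141 CPM (SD, n = 5) in late ND mice and 2468 ± 1990 CPM (SD, n = 5) in untreated mice, a log2 fold change of -2.45 (edgeR adjusted p = 0.0311) that was 0.01 with the hemoglobin share as a term, with no overlap between the groups. Kel, the Kell blood group protein, read 2.98, 1.58, 1.25, 2.61 and 1.72 CPM in late ND mice and 22.1, 3.67, 15.8, 16.6 and 4.40 CPM in untreated mice. Untreated 2, the lowest of its group, lay above late 1, the highest late ND mouse, and the log2 fold change was -2.58 (standard error 0.49, edgeR adjusted p = 0.0242).

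Members of the heme pathway moved less evenly, with a median log2 fold change of -0.34 (0.58 with library totals, under the all-gene median of that scaling) and 4 of 13 members lower. Alas2 (ENSMUSG00000025270.14, chrX:149330371-149353634), the erythroid enzyme that starts heme synthesis, was at 5257, 4156, 3977, 4555 and 2304 CPM in late ND mice and 39217, 9802, 24314, 15532 and 7142 CPM in untreated mice. No late ND mouse reached the lowest untreated mouse, untreated 5, and the log2 fold change was -2.25 (standard error 0.48, edgeR adjusted p = 0.0302). Fech, which inserts iron into the porphyrin ring, was at 273 ± 95.1 CPM (SD, n = 5) in late ND mice and 1410 ± 942 CPM (SD, n = 5) in untreated mice, a log2 fold change of -2.37 (edgeR adjusted p = 0.0242). The mitochondrial glutathione carrier Slc25a39, with a fraction of 0.311 of its exons opposite another gene, had -2.0 (edgeR adjusted p = 0.0242), and the decarboxylase Urod -1.16 (edgeR adjusted p = 0.0311), though another gene lies opposite a fraction of 0.579 of Urod's exons, so that reads of both may mix.

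Late red cell maturation clears mitochondria, ribosomes and surplus protein. Of 12 tested genes of this program 7 fell, with a median log2 fold change of -1.33, or of -0.26 with library totals and -0.22 with the hemoglobin share as a term. Bpgm (ENSMUSG00000038871.6, chr6:34453142-34484029), whose product sets the oxygen affinity of hemoglobin, read 2338, 1708, 1255, 2020 and 915 CPM in late ND mice and 18390, 4608, 9122, 7624 and 2511 CPM in untreated mice. Untreated 5 was only slightly above late 1, the highest late ND mouse, and the log2 fold change was -2.36 (standard error 0.49, edgeR adjusted p = 0.0271). Bnip3l, the receptor for removal of mitochondria, was at 497 ± 119 CPM (SD, n = 5) in late ND mice and 2298 ± 1417 CPM (SD, n = 5) in untreated mice, a log2 fold change of -2.21 (edgeR adjusted p = 0.0242). The ubiquitin-type conjugating enzyme Ube2l6 had -2.21 (edgeR adjusted p = 0.0250) and Trim10, a ring finger protein of late red cell precursors, -2.59 (edgeR adjusted p = 0.0242). Ube2o, a ubiquitin ligase of reticulocytes, read 185, 107, 118, 174 and 130.1 CPM in late ND mice and 1639, 230.4, 498, 598 and 175 CPM in untreated mice. Untreated 1 was more than any other library, untreated 5 lay below late 1, and the log2 fold change of -2.13 (edgeR adjusted p = 0.0443) was -1.39 without untreated 1 and 0.08 with the hemoglobin share as a term.

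Enzymes against oxidants and for gas exchange had 6 of 10 tested members lower and a median of -1.39, or of -0.27 with library totals and -0.32 with the hemoglobin share as a term. Prdx2, a peroxiredoxin among the most abundant red cell proteins, was at 95.9 ± 22.1 CPM (SD, n = 5) in late ND mice and 409 ± 273 CPM (SD, n = 5) in untreated mice, a log2 fold change of -2.09 (edgeR adjusted p = 0.0242). Cat, or catalase, had a narrow late ND range of 103 to 129 CPM against 162 to 613 CPM in untreated mice, and -1.51 (edgeR adjusted p = 0.0242). The carbonic anhydrase Car2 had a log2 fold change of -2.63 (edgeR adjusted p = 0.0242) and the glutathione synthesis subunit Gclm of -1.27 (edgeR adjusted p = 0.0351). Gpx1 had -1.86 (edgeR adjusted p = 0.0271), but a gene on the other strand covers a fraction of 0.853 of its exons.

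Among iron genes 2 of 10 fell around a median of 0.08 (0.95 with library totals). Ftl1, the light chain of ferritin, read 1974, 1834, 2002, 1998 and 1391 CPM in late ND mice and 6298, 3140, 6506, 3731 and 2484 CPM in untreated mice. Late 5 was lowest, no late ND mouse reached an untreated one, and the log2 fold change was -1.27 (edgeR adjusted p = 0.0404). Gm10252, an unclassified transcript on the opposite strand at the start of Ftl1, ran in parallel with -1.24 (edgeR adjusted p = 0.0403), and exons of other genes cover a fraction of 0.57 of it, so its counts may hold reads of Ftl1. The transferrin receptor Tfrc had a log2 fold change of -0.76 (edgeR adjusted p = 0.0486), but of 0.21 with library totals. Erythroid transcription factors as a list hardly moved, with a median of -0.12 (0.82 with library totals) and 1 of 11 called, Lmo2, at -1.07 (edgeR adjusted p = 0.0383) and 0.02 with library totals.

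The 4 adult hemoglobin genes had a median log2 fold change of -2.40 (-1.18 with library totals), yet edgeR called 0 of them, with 4 of 4 lower at an unadjusted p under 0.05 and 4 of 4 called by DESeq2. Hba-a1 read 66741, 62871, 74582, 74493 and 29606 CPM in late ND mice and 395650, 142240, 318400, 177590 and 140790 CPM in untreated mice. Its groups did not overlap, and its log2 fold change was -1.93 (standard error 0.67, edgeR adjusted p = 0.158). Hbb-bs read 133210, 27909, 34005, 145520 and 53427 CPM in late ND mice and 903380, 79289, 726190, 340590 and 270480 CPM in untreated mice. Untreated 2 lay below late 1 and late 4, and the log2 fold change was -2.56 (standard error 0.96, edgeR adjusted p = 0.192), or 0.60 with the hemoglobin share as a term.

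Red cell genes that moved together can be set beside the letters before their starts. RefSeq sequence of build GRCm38.p6 held a promoter for 21 of the 31 called red cell genes, 26 promoters in all, from 250 bases before to 50 after the start. The letters AGATAA, on either strand a short motif bound by GATA factors, were in 4 of the 26 (15.4%) and in 11.2% of the 32851 promoters of all genes. The letters CCACACCC, a motif of the factor KLF1, were in 0 of the 26 and in 3.56% of all promoters. The 4 matches are given as 100 bases on the strand of the gene, 5′ to 3′, with AGATAA or its reverse complement TTATCT in capitals. Epb42, a membrane skeleton gene with a log2 fold change of -2.83 (edgeR adjusted p = 0.0332), was chosen after its values were seen. A match in this window describes letters and not binding.
Alas2 chrX:150547284-150547383: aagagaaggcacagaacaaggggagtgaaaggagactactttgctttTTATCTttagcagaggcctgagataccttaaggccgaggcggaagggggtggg
Trim10 chr17:36869364-36869463: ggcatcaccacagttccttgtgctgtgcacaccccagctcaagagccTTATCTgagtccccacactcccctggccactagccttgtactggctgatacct
Kel chr6:41704329-41704428: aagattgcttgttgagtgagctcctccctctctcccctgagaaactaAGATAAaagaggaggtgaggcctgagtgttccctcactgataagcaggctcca
Epb42 chr2:121037028-121037127: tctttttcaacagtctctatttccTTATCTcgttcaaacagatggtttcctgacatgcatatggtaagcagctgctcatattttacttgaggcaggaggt
The match lay 86 bases before the start in Alas2, 163 in Trim10, 56 in Kel and 226 in Epb42, counted at its first letter.

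Loci of red cell microRNAs also carried lower counts, and they were chosen after their values were seen. Mir451a and Mir451b share chr11:77963996-77964067 of GRCm39 on opposite strands, so their reads cannot be told apart. All bases of Mir451a also overlap another gene on its own strand, and mature microRNAs were not measured as such. Mir451a was at 0.895, 1.95, 2.22, 1.97 and 1.45 CPM in late ND mice and 15.4, 6.19, 11.8, 5.42 and 2.29 CPM in untreated mice. Untreated 5 was just above late 3, the highest late ND mouse, and the log2 fold change was -2.16 (edgeR adjusted p = 0.0250), with -2.19 (edgeR adjusted p = 0.0297) for Mir451b, whose groups overlapped, with late 3 and late 4 above untreated 5. Mir3620, on the strand opposite the start of Alas2, had -2.27 (edgeR adjusted p = 0.0242), and its reads cannot be told from those of Alas2. The mature products of the shared locus, from RefSeq on GRCm38.p6, lie at chr11:78073186-78073207 and, on the other strand, chr11:78073219-78073239, and have different seeds, shown in capitals (bases 2 to 8).
mmu-miR-451a: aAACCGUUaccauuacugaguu
mmu-miR-451b: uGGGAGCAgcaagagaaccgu

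Several large falls lay outside the lists of red cell genes. The poly(A) polymerase Tent5c was at 214 ± 68.9 CPM (SD, n = 5) in late ND mice and 1164 ± 889 CPM (SD, n = 5) in untreated mice, a log2 fold change of -2.44 (edgeR adjusted p = 0.0261). It was -1.99 (edgeR adjusted p = 0.0242) for the ring finger protein Mkrn1 and -2.73 (edgeR adjusted p = 0.0242) for the peroxiredoxin-like Prxl2a, and for none of these 3 genes did the groups overlap. The pseudogene Cyp4b1-ps2 had -2.62 (edgeR adjusted p = 0.0242), but all of its exon bases overlap another gene on the same strand.

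Cell cycle genes had 3 of 18 tested members lower and a median of -0.38 (0.53 with library totals). Ube2c, which helps destroy cyclins in mitosis, had a log2 fold change of -2.31 (edgeR adjusted p = 0.0242), Ccna2, or cyclin A2, of -1.53 (edgeR adjusted p = 0.0425) and Birc5, or survivin, of -1.26 (edgeR adjusted p = 0.0390). Outside that list, the spindle protein Nusap1 read 19.5, 14.4, 9.73, 21.2 and 8.54 CPM in late ND mice and 168, 45.4, 123, 76.6 and 24.5 CPM in untreated mice. All untreated mice were above all late ND mice, with untreated 5 the lowest of its group. The log2 fold change was -2.56 (standard error 0.46, edgeR adjusted p = 0.0242), and the formin Diaph3 had -2.46 (edgeR adjusted p = 0.0242).

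Of 24 tested genes that answer type I interferon, 3 fell and 0 rose, while the list's median was -0.08 (0.81 with library totals, 0.40 with the hemoglobin share as a term). With that term 20 of the 24 members lay above the all-gene median, against 9 of 24 without it. Isg20, a nuclease against viral RNA, read 522, 387, 302, 473 and 158 CPM in late ND mice and 3359, 1108, 2400, 1359 and 652 CPM in untreated mice. The highest late ND mouse, late 1, lay below untreated 5, the lowest untreated mouse, and the log2 fold change was -2.27 (standard error 0.44, edgeR adjusted p = 0.0242). Rsad2, or viperin, had -2.42 (edgeR adjusted p = 0.0250) and Isg15, a ubiquitin-like modifier joined to its targets with the help of Ube2l6, -2.01 (edgeR adjusted p = 0.0271), both with overlap between the groups, and another gene lies opposite a fraction of 0.311 of Isg15's exons. The other 21 members had adjusted p of at least 0.05, and Rsad2 was among the genes with the most negative loading on the first component of the libraries, beside Bpgm and Slc4a1. Interferon gamma-inducible genes had a median of -0.23 (0.65 with library totals), and edgeR called 0 of 14 (3 lower at an unadjusted p under 0.05, 1 lower with DESeq2).

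Ribosomal protein genes were lower by a median of 0.42 log2 units (and higher by 0.55 with library totals), and 7 of 79 fell, with 65 lower at an unadjusted p under 0.05 and 54 lower with DESeq2. Rpl41, 1 of the 7, was at 397 ± 81.2 CPM (SD, n = 5) in late ND mice and 1014 ± 493 CPM (SD, n = 5) in untreated mice, a log2 fold change of -1.35 (edgeR adjusted p = 0.0340). Replication-dependent histones had 1 of 19 members lower and a median of -0.52 (0.39 with library totals). That member, H2bc4, had a log2 fold change of -0.57 (edgeR adjusted p = 0.0340), and of 0.34 with library totals. For the mitochondrially encoded genes the median was -0.63 (0.29 with library totals), and edgeR called 0 of 10 (6 lower at an unadjusted p under 0.05, 1 with DESeq2).

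Classical monocyte genes were higher in late ND mice. Of 12 tested members 5 were called higher and 12 had a positive fold change, with a median log2 fold change of 0.71 against 0.002 over all genes. That median was 1.62 with library totals, where the all-gene median was 0.908, and 0.90 with the hemoglobin share as a term. Summed over the list, levels were 5428, 5464, 5679, 6749 and 5982 CPM in late ND mice 1 to 5 and 3615, 2628, 2696, 4101 and 3280 CPM in untreated mice 1 to 5. Every late ND mouse was above every untreated mouse, with untreated 4 highest of its group. Ccr2 (ENSMUSG00000049103.15, chr9:123901982-123913594), the receptor through which these cells leave the marrow, read 505, 446, 321, 512 and 374 CPM in late ND mice and 159, 156, 197, 245 and 242 CPM in untreated mice. Late 3 was lowest of its group and still above untreated 4, and the log2 fold change was 1.11 (standard error 0.18, edgeR adjusted p = 0.0242).

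Chil3 (ENSMUSG00000040809.11, chr3:106054870-106074880), a chitinase-like secreted protein, read 868, 927, 1131, 825 and 1110 CPM in late ND mice and 622, 265, 166, 423 and 330.5 CPM in untreated mice. Untreated 1 was nearest to the late ND range and untreated 3 farthest, and the log2 fold change was 1.43 (standard error 0.29, edgeR adjusted p = 0.0261). Fn1 (ENSMUSG00000026193.16, chr1:71624673-71692419), or fibronectin, read 175, 149, 197, 235 and 352 CPM in late ND mice and 136, 37.0, 21.4, 72.9 and 64.4 CPM in untreated mice. Late 5 was highest, untreated 1 came close to late 2, and the log2 fold change was 1.76 (standard error 0.40, edgeR adjusted p = 0.0403). Csf1r, the receptor for the growth factor of the lineage, rose by 0.73 on the log2 scale (edgeR adjusted p = 0.0322) with an overlap between groups.

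The fifth called member, the proteoglycan Vcan, was at 93.2 ± 26.4 CPM (SD, n = 5) in late ND mice and 34.5 ± 13.5 CPM (SD, n = 5) in untreated mice, a log2 fold change of 1.43 (edgeR adjusted p = 0.0242). Another 3 genes of no list, taken for their fold change or level, also rose. The endocytic receptor Lrp1 had a log2 fold change of 1.57 (edgeR adjusted p = 0.0250). Apoe, the lipid carrier, had 0.78 (edgeR adjusted p = 0.0242), and Mpeg1, a pore-forming protein, 0.81 (edgeR adjusted p = 0.0450). Of these 3, Mpeg1 alone had overlapping groups. Mpeg1, Apoe, Chil3 and Ccr2 were among the 6 higher genes with the highest mean CPM, beside the messenger RNA decay factor Zfp36l2 at 0.62 (edgeR adjusted p = 0.0316) and the kinase Prkcd at 0.48 (edgeR adjusted p = 0.0482).

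Dendritic cell genes had 3 of 13 tested members higher and a median of 0.23 (1.19 with library totals, 0.39 with the hemoglobin share as a term). At an unadjusted p under 0.05, 4 were higher and 1 lower, and 3 of the 13 had a negative fold change. Cd209a (ENSMUSG00000031494.8, chr8:3793397-3798984), a lectin of monocyte-derived dendritic cells, read 6.46, 8.42, 5.73, 9.72 and 9.16 CPM in late ND mice and 4.41, 1.61, 3.11, 2.62 and 2.46 CPM in untreated mice. Late 3 and late 1 were lowest of their group and above untreated 1, the highest untreated mouse, and the log2 fold change was 1.6 (standard error 0.26, edgeR adjusted p = 0.0242). Flt3, the growth factor receptor of dendritic cell precursors, read 10.8, 10.4, 10.9, 9.48 and 14 CPM in late ND mice and 6.62, 4.89, 5.28, 2.99 and 3.87 CPM in untreated mice. Again no untreated mouse reached a late ND mouse, and the log2 fold change was 1.28 (standard error 0.20, edgeR adjusted p = 0.0242). The lectin Clec10a had 1.39 (edgeR adjusted p = 0.0412), with overlap between the groups at untreated 1.

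Among the 12 separated rises with the largest fold change were 5 that no list holds. Olfm1, a secreted glycoprotein, was at 14.7 ± 3.14 CPM (SD, n = 5) in late ND mice and 4.23 ± 1.38 CPM (SD, n = 5) in untreated mice, a log2 fold change of 1.75 (edgeR adjusted p = 0.0242). Ms4a8a, a membrane protein, had 1.45 (edgeR adjusted p = 0.0242), and Cysltr1, the receptor for cysteinyl leukotrienes, 1.47 (edgeR adjusted p = 0.0242) in edgeR's test. The transporter genes Abca9 and Slc49a3 had 1.35 (edgeR adjusted p = 0.0242) and 1.31 (edgeR adjusted p = 0.0242). In late ND mice Slc49a3 stayed between 24.3 and 27.1 CPM, against 6.81 to 17.6 CPM in untreated mice.

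Nonclassical monocyte genes shifted little, with a median of -0.09 (0.82 with library totals, 0.05 in 18S-rich libraries) and 1 of 12 called. That gene, Cd36, a fatty acid and lipoprotein receptor that red cell precursors also carry, read 16, 9.41, 13.1, 13.6 and 14.4 CPM in late ND mice and 62.6, 20.0, 64.6, 43.4 and 34.7 CPM in untreated mice. No late ND mouse reached an untreated mouse, with a log2 fold change of -1.74 (standard error 0.28, edgeR adjusted p = 0.0242). Whether the shift of this list differs from that of the classical list was not tested.

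Neutrophil genes are split here by granule and surface. Primary granule genes had 2 of 4 tested members higher and a median of 0.43 (1.36 with library totals, 0.96 with the hemoglobin share as a term), namely Ctsc, which activates granule proteases, at 0.74 (edgeR adjusted p = 0.0293), and the protease Prtn3 at 1.61 (edgeR adjusted p = 0.0474). For secondary and tertiary granules the median was 0.32 (1.15 with library totals, 0.09 with the hemoglobin share as a term), and edgeR called 0 of 16 (0 at an unadjusted p under 0.05, 0 with DESeq2). Surface receptors of neutrophils had a median of 0.35 (1.15 with library totals, 0.17 with the hemoglobin share as a term) with 0 of 13 called by edgeR (3 higher at an unadjusted p under 0.05, 1 with DESeq2), and Csf3r, the receptor for their growth factor, read 1606, 1656, 2656, 2766 and 1632 CPM in late ND mice and 957, 1758, 1041, 1609 and 1784 CPM in untreated mice. Its groups overlapped, and its log2 fold change was 0.53 (edgeR adjusted p = 0.324). S100 and stefin genes had a median of 0.34, or of 1.12 with library totals and -0.20 with the hemoglobin share as a term, and 0 of 13 called by edgeR (1 lower at an unadjusted p under 0.05, 1 with DESeq2), and S100a8 differed by 0.02 (edgeR adjusted p = 0.990).

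Basophil and eosinophil genes had a median of -0.28 (0.62 with library totals), with 0 of 7 called by edgeR, 0 at an unadjusted p under 0.05 and 0 with DESeq2. Platelet genes had a median of -0.32 (0.60 with library totals) and 0 of 16 called by edgeR (5 lower at an unadjusted p under 0.05, 1 with DESeq2). Pf4 read 354, 375, 653, 391 and 459 CPM in late ND mice and 529.7, 736, 714, 545 and 554 CPM in untreated mice. Late 3 lay among the untreated mice, and the log2 fold change was -0.46 (edgeR adjusted p = 0.233), or 0.43 with library totals.

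T cell genes were a little lower on the trimmed-mean scale and a little higher with library totals, with a median of -0.44 and 0.47, in each case 0.44 under the all-gene median. With the hemoglobin share as a term the median was -0.59, which was 0.57 under the all-gene median, and 0 of 21 members lay above that median. Of 21 tested members 21 had a negative fold change, 4 fell, 19 were lower at an unadjusted p under 0.05, and DESeq2 called 12. Summed over the list, levels were 738, 809.7, 686, 688 and 637 CPM in late ND mice 1 to 5 and 1021, 1203, 1016, 945 and 838 CPM in untreated mice 1 to 5. Each late ND mouse was below each untreated mouse, but late 2 came within a narrow gap of untreated 5. Thy1, a surface glycoprotein of T cells, read 58.4, 65.4, 55.6, 69.3 and 54.3 CPM in late ND mice and 95.7, 104, 87.9, 79.4 and 88.7 CPM in untreated mice. The groups did not overlap, and the log2 fold change was -0.59 (standard error 0.11, edgeR adjusted p = 0.0242), or 0.30 with library totals.

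Trbc2, a constant segment of the T cell receptor beta chain, had 52.6 ± 6.90 CPM (SD, n = 5) in late ND mice and 87.8 ± 12.7 CPM (SD, n = 5) in untreated mice, a log2 fold change of -0.74 (edgeR adjusted p = 0.0242) and of 0.16 with library totals. The receptor chain Cd3g had -0.63 (edgeR adjusted p = 0.0274) and 0.28 with library totals. In the naive and central memory list 1 of 10 fell around a median of -0.41 (0.54 with library totals), namely Igfbp4, at -0.63 (edgeR adjusted p = 0.0242) and 0.30 with library totals. Cd3e read 39.3, 33.5, 25.0, 32.5 and 27.1 CPM in late ND mice and 44.5, 40.2, 43.2, 35.9 and 34.5 CPM in untreated mice. Only late 1 reached the untreated range, and the log2 fold change was -0.33 (edgeR adjusted p = 0.232), or 0.60 with library totals.

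Ctla4 (ENSMUSG00000026011.14, chr1:60926159-60954991), the target of the antibody, read 4.08, 3.85, 5.73, 4.03 and 3.58 CPM in late ND mice and 4.41, 7.11, 5.90, 3.74 and 3.87 CPM in untreated mice. Late 3 was highest of its group, and its level lay inside the untreated range. The log2 fold change was -0.26 (standard error 0.23, edgeR adjusted p = 0.645), or 0.60 with library totals, so no difference beyond the spread was found. Checkpoint receptors and regulatory T cell genes had a median of -0.21 (0.74 with library totals) and 0 of 16 called by edgeR (3 lower at an unadjusted p under 0.05, 0 with DESeq2). Cytotoxic lymphocyte genes had a median of -0.18 (0.77 with library totals), with 0 of 16 called by edgeR, 1 lower at an unadjusted p under 0.05 and 0 with DESeq2.

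B cell genes had a median of -0.14 (0.87 with library totals, -0.33 with the 18S class as a term, -0.58 in 18S-rich libraries), with 0 of 15 called by edgeR, 0 at an unadjusted p under 0.05 and 0 with DESeq2. Cd79a read 149, 293, 230.4, 94.3 and 135 CPM in late ND mice and 244, 212, 212, 139.6 and 148 CPM in untreated mice. Late 2 was highest of all 10 mice and late 4 lowest, and the log2 fold change was -0.08 (edgeR adjusted p = 0.932), or 0.94 with library totals. For plasma cell genes the median was 0.25 (1.13 with library totals, 0.67 in 18S-rich libraries), and edgeR called 0 of 12 (3 higher at an unadjusted p under 0.05, 0 with DESeq2). MHC class II genes had a median of -0.16 (0.84 with library totals, -0.32 with the 18S class as a term, -0.49 in 18S-rich libraries) and MHC class I genes of -0.03 (0.87 with library totals), with 0 of 10 and 0 of 14 called by edgeR, 0 at an unadjusted p under 0.05 and 0 with DESeq2 in both.

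**Figure D3:**
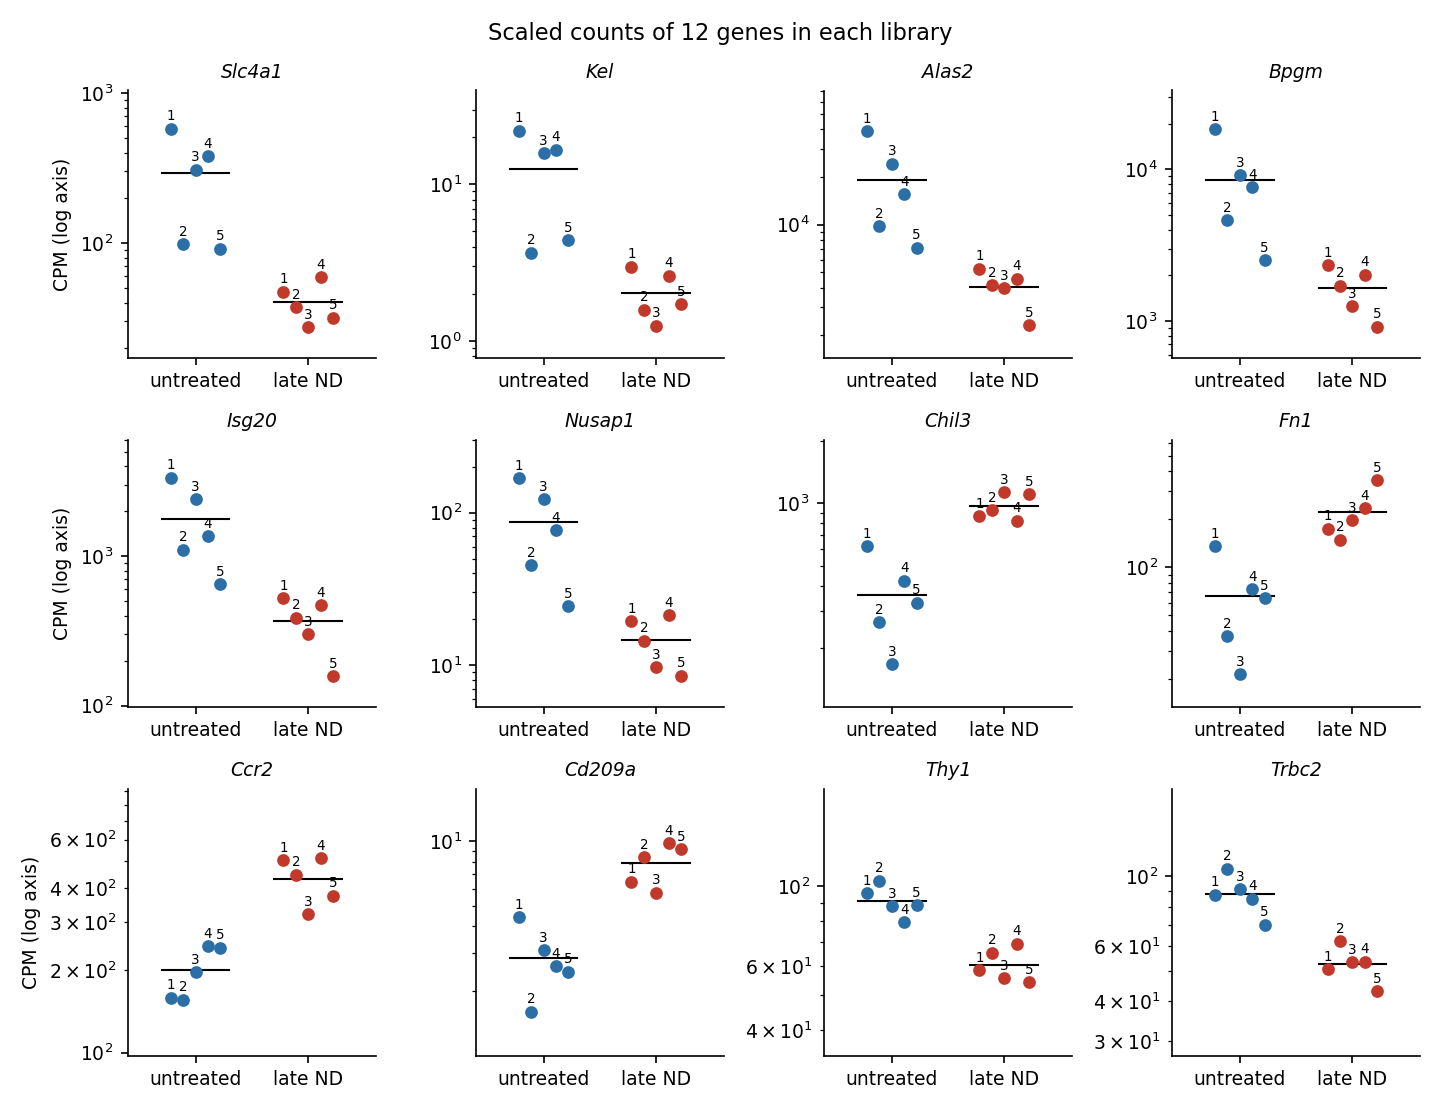
Scaled counts (CPM, log axis) of 12 genes in the 10 libraries, with the mouse number at each point and a line at the mean of 5. The labels do not say what equal numbers share. Slc4a1 to Nusap1 are lower and Chil3 to Cd209a higher in late ND mice, and Thy1 and Trbc2 are lower on this scale. With library totals their log2 fold changes are 0.30 and 0.16, under the all-gene median of 0.908.

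Receptors and signals of innate immunity gave single calls, where 0.989% of all genes tested were called higher and 2.01% lower. Complement genes had 1 of 13 tested members higher and 1 lower around a median of 0.43 (1.21 with library totals). The lower member, the membrane regulator Cd59a, was at -0.94 (edgeR adjusted p = 0.0250), or at 0.06 with library totals. Among Fc gamma receptors, 1 of 5 rose around a median of 0.51 (1.35 with library totals, 0.76 with the hemoglobin share as a term), the inhibitory Fcgr2b at 0.75 (edgeR adjusted p = 0.0403). In the chemokine and cytokine list 1 of 12 rose around a median of 0.13 (1.00 with library totals, 0.20 with the hemoglobin share as a term), Ccl9, at 0.75 (edgeR adjusted p = 0.0423). Toll-like receptor and interleukin-1 genes had a median of 0.30 (1.12 with library totals) with 0 of 23 called by edgeR (3 higher at an unadjusted p under 0.05, 1 with DESeq2).

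Immediate early genes, which answer within minutes of a stimulus, had 1 of 12 higher around a median of 0.32 (1.11 with library totals, 0.05 with the hemoglobin share as a term), the stress factor Atf3 at 1.05 (edgeR adjusted p = 0.0271). In the Bcl2 family 1 of 13 rose around a median of 0.22 (1.07 with library totals), the death-promoting Bmf at 0.66 (edgeR adjusted p = 0.0404). Glucocorticoid-responsive genes had a median of 0.27 (1.14 with library totals) with 0 of 10 called by edgeR (1 higher at an unadjusted p under 0.05, 0 with DESeq2), and clock genes a median of 0.10 (1.02 with library totals) with 0 of 11 called (1 higher and 1 lower at an unadjusted p under 0.05, 1 lower with DESeq2).

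Genes of other tissues were searched because cheek blood can pick up skin or other cells. Sebaceous gland genes, 14 in all with 1 at 0 in every library, summed to 1082, 831, 724, 1467 and 4347 CPM in late ND mice 1 to 5 and 713, 638, 1169, 1304 and 7886 CPM in untreated mice 1 to 5. Late 5 and untreated 5 stood far above the other libraries, and the most abundant member, Scd1, read 366, 347, 240.1, 460.4 and 1538 CPM in late ND mice and 297, 229, 401, 387 and 3334 CPM in untreated mice. Between the groups the list had a median of -0.54 (0.26 with library totals, -2.23 with the hemoglobin share as a term), with 0 of 11 called by edgeR, 0 at an unadjusted p under 0.05 and 0 with DESeq2, and Scd1 had -0.66 (edgeR adjusted p = 0.740), or 0.14 with library totals and 0.85 without untreated 5. Without these 2 libraries, a choice made after seeing the data, 113 genes were higher and 358 lower, among them 78 of the 134 and 250 of the 272. The part of sebaceous RNA in single genes was not tested beyond this.

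Carcinoma genes, which could mark cells of the graft, had a median of -0.52 (0.35 with library totals), fibroblast and endothelium genes of -0.56 (0.29 with library totals), keratinocyte genes of -0.34 (0.52 with library totals) and adipocyte genes of -0.63 (0.31 with library totals). EdgeR called 0 of 7, 0 of 7, 0 of 2 and 0 of 2, with 0, 2, 0 and 1 lower at an unadjusted p under 0.05 and 0 with DESeq2. With the hemoglobin share as a term the 4 medians were -1.38, -1.60, -1.50 and -0.78. Skeletal muscle genes had a median of 0.04 (0.97 with library totals, -0.23 in 18S-rich libraries) with 0 of 4 called by edgeR (1 lower at an unadjusted p under 0.05, 0 with DESeq2). Of 12 salivary and lacrimal gland genes, 7 were at 0 in every library and 0 passed the filter on low counts.

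**Figure D4:**
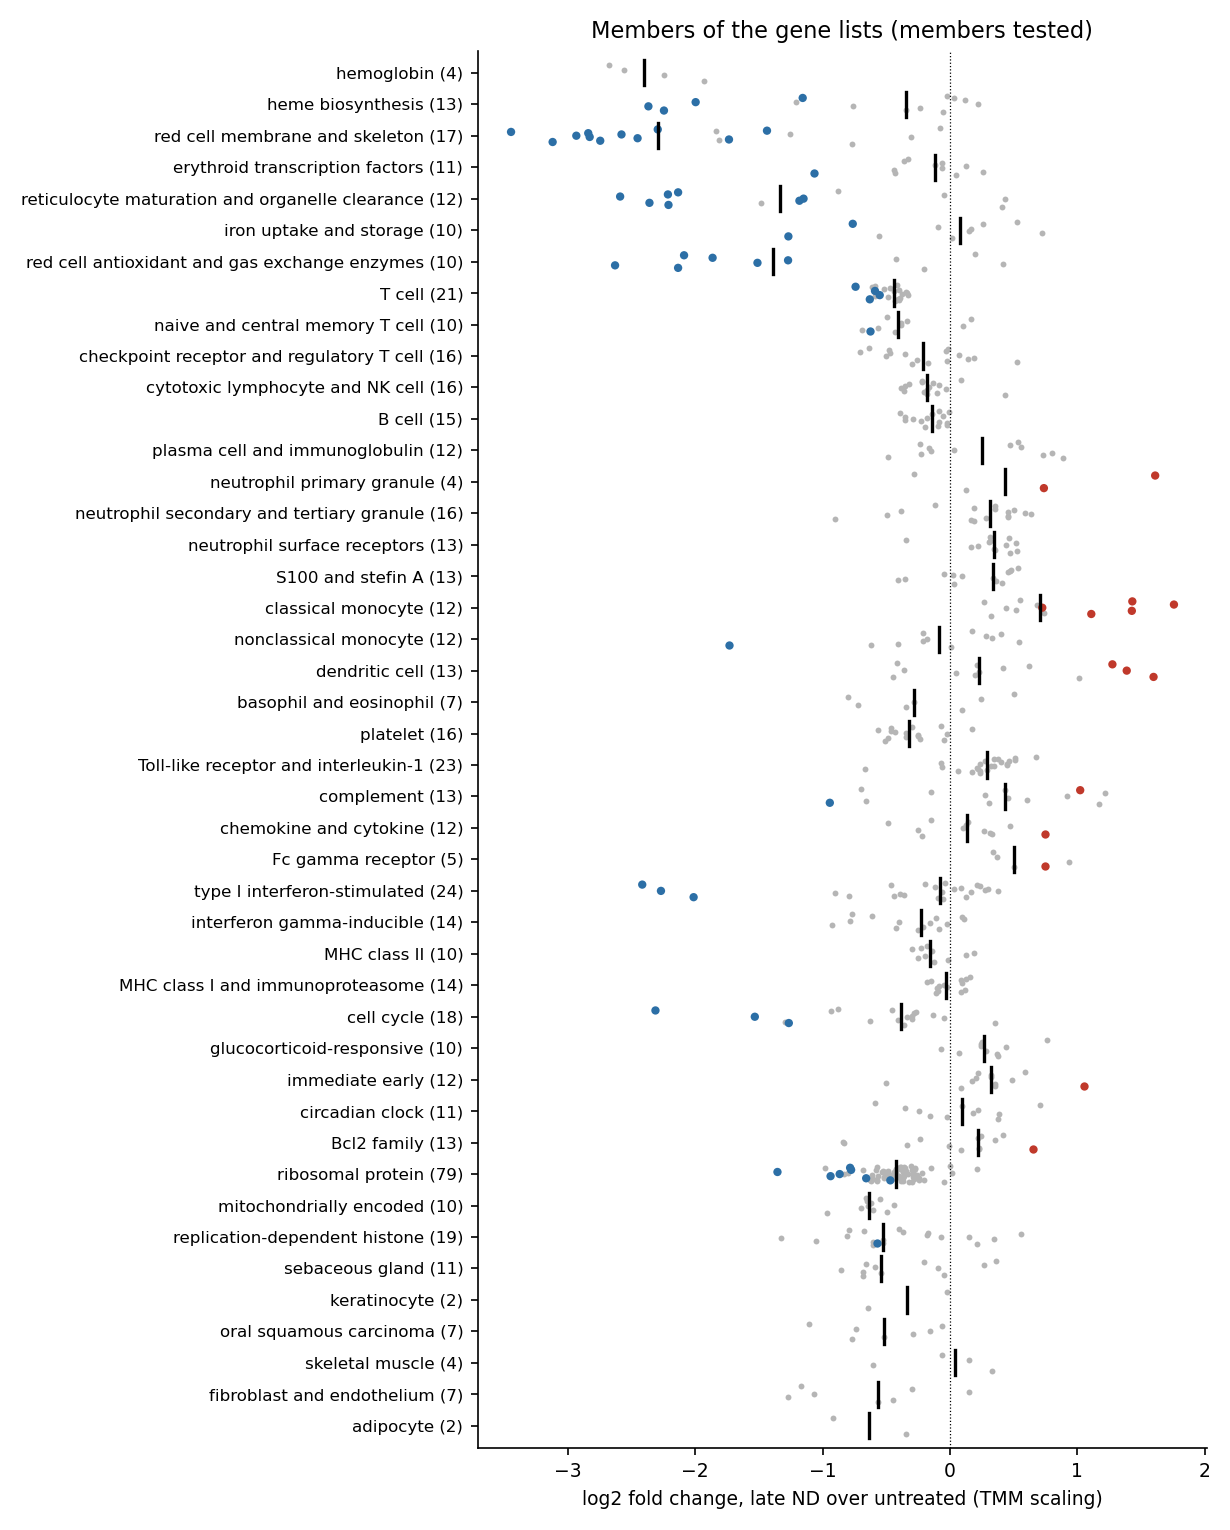
Log2 fold changes of the tested members of each list (number in brackets), with red points higher and blue points lower at an adjusted p under 0.05, a black bar at the list's median and a dotted line at the median of all genes. Red cell lists extend to the left and classical monocyte genes to the right, and with library totals the dotted line would lie at 0.908.

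Principal components of the 500 most variable genes put 51.0% of the variance on the first and 35.1% on the second. In every fit each component was turned so that the late ND mean lay above the untreated mean. The sign of a difference was therefore set in advance. Components were refitted in each alternative, so differences from separate fits lie on different axes. Scores on the first were 2.63, 5.62, 6.21, 5.5 and 23.2 in late ND mice 1 to 5 and -29.8, -6.83, -15.3, -11.1 and 19.8 in untreated mice 1 to 5. Untreated 5 lay among the late ND mice, next to late 5, and the other untreated mice lay below all late ND mice. The genes with the most positive loading included Cidea and Scd3 of the sebaceous list, in which late 5 and untreated 5 stood far above the other libraries. The group difference of 17.3 on the first component did not pass (p = 0.103 by a two-sided exact permutation test, 0.103 when adjusted over 2 components). It passed without untreated 5, at 27.7 (p = 0.00794 by an exact permutation test, 0.0159 when adjusted). It did not pass without late 5, at 21.2, or over all genes past the filter, at 29.8 (p = 0.0397 by an exact permutation test, 0.0794 when adjusted, in both), and it was 5.28 without untreated 1 and 10.9 without untreated 3. Over these and the other alternatives adjusted p ran from 0.0159 to 0.595. On the second component the groups differed by 15.1 (p = 0.0794 by an exact permutation test, 0.103 when adjusted), by 18.8 without untreated 1 and by 1.65 without untreated 5, with adjusted p from 0.0159 to 0.762 over the alternatives.

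The early ND mice, 5 further animals with the same antibody, can be set beside both groups on a scale common to all 15 libraries. Slc4a1 was at 265 ± 186, 253 ± 162 and 37.0 ± 12.2 CPM (SD, n = 5 each) in untreated, early ND and late ND mice. In the same order Alas2 was at 17501 ± 11834, 17042 ± 9365 and 3681 ± 1003 CPM (SD, n = 5 each), and Chil3 at 329 ± 157, 466 ± 261 and 883 ± 126 CPM (SD, n = 5 each). Early ND mice ranged from 48.1 to 418 CPM in Slc4a1, from 6706 to 31145 CPM in Alas2 and from 193 to 767 CPM in Chil3. For Slc4a1, early ND mouse 1 lay inside the late ND range and below every untreated mouse, and for Alas2 all 5 lay inside the untreated range. Ccr2 was at 182 ± 39.1, 193 ± 101 and 393 ± 78.2 CPM (SD, n = 5 each), and Thy1 at 82.9 ± 8.25, 68.2 ± 14.1 and 55.1 ± 6.17 CPM (SD, n = 5 each). The difference of early ND mice from either group was not tested here.

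**Figure D5:**
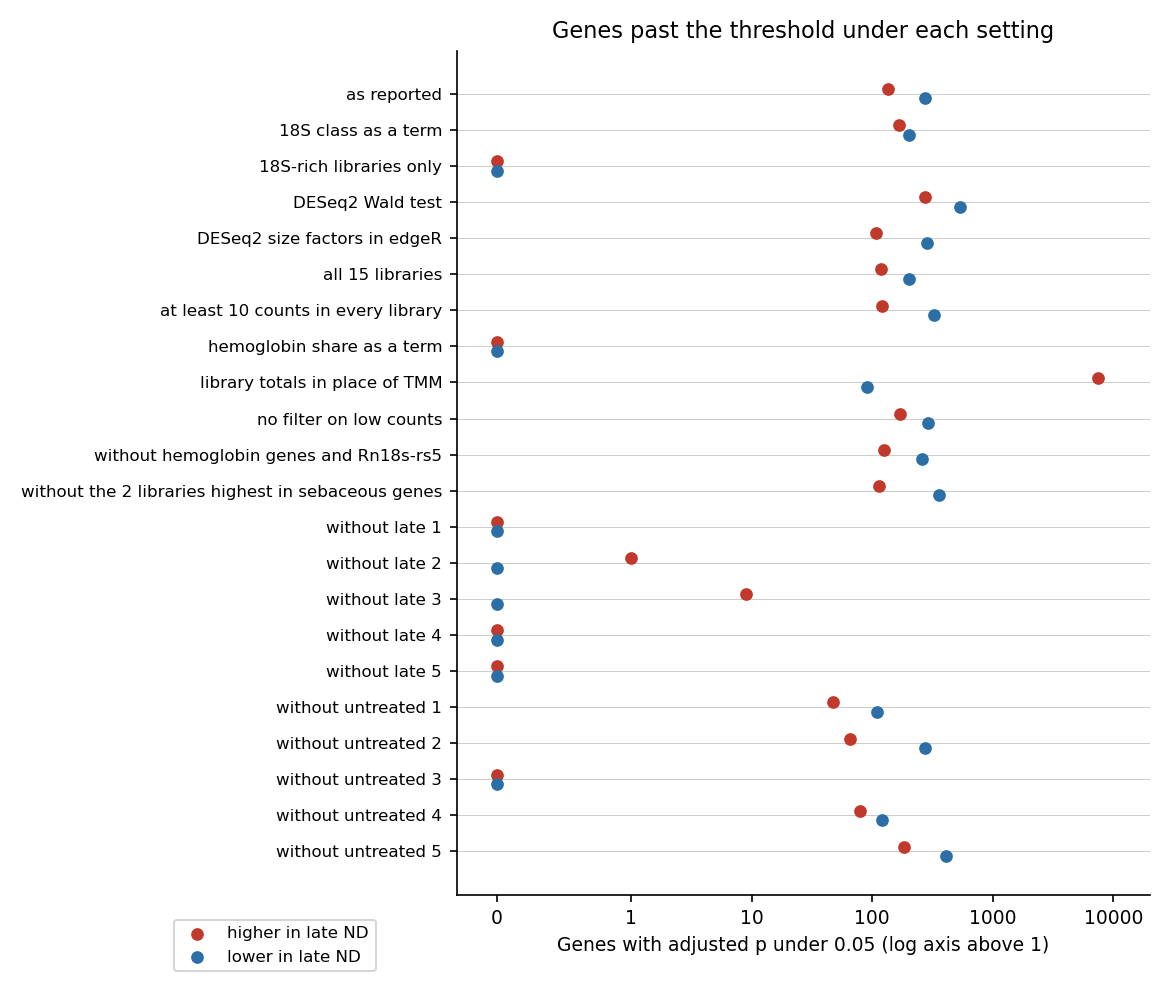
Genes past an adjusted p of 0.05 in each direction (log axis above 1) for the comparison as reported, for other settings and with each library left out. The block for replicate numbers is not drawn. Counts fall to 0 in both directions with the hemoglobin share as a term, in 18S-rich libraries only and without late 1, late 4, late 5 or untreated 3, and library totals give 7463 higher genes.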

How the data were processed

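Whole blood RNA was sequenced in paired reads of 150 bases, 1 library per mouse. The authors aligned reads with STAR 2.7.9, sorted with SAMtools 1.7 and counted with HTSeq 0.13.5, and the deposited values are raw gene counts. Annotation release and strand setting are not stated, and the labels name both mm10 and GRCm39. Of 55416 gene identifiers, 54749 matched GENCODE release M39 on GRCm39. HTSeq's 5 counters were removed: in the 10 libraries compared, 51.3% to 55.1% of uniquely aligned pairs hit no feature, 1.24% to 2.35% were ambiguous, and alignments to several places made up 44.1% to 73.1% of genes plus counters.

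Genes were kept by filterByExpr, scaled by trimmed means (TMM) and tested with edgeR 4.0.16 (quasi-likelihood) in R 4.3.3, with Benjamini-Hochberg adjustment over all 13547 genes and a threshold of 0.05. DESeq2 1.42.0, the variance-stabilised counts behind the principal components, and limma 3.58.1 were used beside it. The procedure was tested on simulated data. Tables and figures were made with Python 3.11.15, pandas 2.3.3, numpy 2.4.6 and matplotlib 3.10.9. For library measures and component scores, exact permutation tests (two-sided) over samples were used.

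Genes were named by rule: the 12 separated genes per direction with the largest fold change (adjusted p under 0.05, mean of at least 5 CPM), the 6 called genes per direction with the highest mean, per list up to 4 called members per direction or else the 2 most abundant, and 7 markers. The rule took 140 genes, of which 75 are described, beside 4 others; some of the rest are not reported here. Lists numbered 45 with 752 entries, 749 of them found. Members and lists were chosen with earlier results of these data known. Alternatives changed scaling, test, filter, terms or libraries. Early ND libraries entered only the fit of all 15 libraries and the levels given beside the other groups.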

Additional observations from a re-analysis of the deposited data

Results flagged for a closer look

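Within groups of 5 libraries, 12 of 174 groups of values held 1 library far from the other 4 (a gap above 0.71 of the whole range by Dixon's criterion), where chance alone gives about 1 in 20 groups. The gene counts of untreated 2 were 10796099, above its group. The score of late 5 on the first component was 23.2, above its group.

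Low values in late 5 were Hba-a1 at 29606 CPM, Ftl1 at 1391 CPM and Gm10252 at 1114 CPM. High values in untreated 1 were Ube2o at 1639 CPM and Ccna2 at 24.3 CPM. Cysltr1 was high in untreated 4, at 4.11 CPM, Ccl9 in late 4, at 88.5 CPM, and Ctla4 in late 3, at 5.73 CPM. Scd1 was high in late 5, at 1538 CPM, and in untreated 5, at 3334 CPM. Late 5 held 5 of the 12 values, and their source was not tested.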

How the results depend on the processing

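With 134 genes higher and 272 lower as reported, edgeR gave 0 and 0 in 18S-rich libraries only (955 and 961 at an unadjusted p under 0.05) and 0 and 0 with the hemoglobin share as a term (417 and 292), where DESeq2's test on all 10 libraries without such a term gave 272 and 538. Library totals gave 7463 and 90. Leaving out 1 library gave 0 to 184 higher and 0 to 409 lower. A block for replicate numbers gave 230 and 377. Samples of equal number correlated at 0.03 to 0.57, highest for late 5 and untreated 5. Of the 5 late ND samples, 3 correlated best with the untreated sample of their own number. The labels do not say what equal numbers share, so whether they pair animals is not known. For the hemoglobin share the block left -26.4 points (exact sign-flip test, p = 0.0625, the smallest that 5 pairs allow, so that it could not pass 0.05). On the first component the difference was 29.8 over all genes and 5.28 to 27.7 with 1 library left out. Each fit had its own axis, turned so that the late ND mean was the higher, so the sign was set in advance.

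Signs turned with the hemoglobin share as a term for Hbb-bs (0.60), Epb41 (0.00748), Ube2o (0.0828) and S100a8 (-0.20). With library totals they turned for Tfrc (0.21), Lmo2 (0.0236), H2bc4 (0.34), Cd59a (0.0562), Thy1 (0.30), Trbc2 (0.16), Cd3g (0.28), Igfbp4 (0.30), Cd3e (0.60), Ctla4 (0.60), Cd79a (0.94), Pf4 (0.43) and Scd1 (0.14). Without the 2 sebaceous-rich libraries Scd1 was at 0.11. With 1 library left out, Cd79a ranged from -0.34 to 0.0503, S100a8 from -0.22 to 0.18 and Scd1 from -1.42 to 0.85. Of 69 called genes named in the report, 59 kept their sign in every setting tested. Among the others, 8 turned with library totals, which moved the all-gene median from 0.002 to 0.908, and 2 with the hemoglobin share as a term. The settings reuse libraries in which the genes were called.

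The design sets 5 mice given the antibody and labelled with a late operation against 5 mice given neither. Whether the operation had taken place at sampling is not known, and composition of the blood was not measured. Hemoglobin share did not overlap between the groups, so its part and that of the group cannot be told apart. Depth was higher on average in late ND mice but overlapped, with untreated 2 above late 1 and late 5. The part of depth was not tested.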
